A study of Mus musculus with 4 samples.

Results

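The endothelin and angiotensin system genes are 9 genes of 2 peptide hormone systems that act on the vessel wall: the ligands Edn1 and Edn3, the endothelin receptors Ednra and Ednrb, the converting enzymes Ece1 and Ece2, and Ace, Agt and Agtr1a of the angiotensin branch. They were taken as all non-control probes whose accession belongs to 1 of these symbols in RefSeq, which gave 15 of 41174 probes and 9 of 18353 named genes. The RNA came from endothelial cells that had been isolated from the hearts of adult mice. The G2-EC-KO group, given as a Gata2 knock out by its genotype label, had 2 samples. The control group, labelled wild type, also had 2, and each sample was hybridised to 1 Agilent 1-colour array. The Cre driver or promoter behind the knock out, the strain, the exact age and any pooling of animals are not given in the sources used here. Nor do the labels say that replicates came from separate animals. The p-values set each group difference against the spread among these samples, moderated over all probes, and that spread may be technical.

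Endothelins are short vasoactive peptides. Endothelial cells make a larger Edn1 precursor, which is trimmed and then cut to the active peptide by Ece1. Ednra on smooth muscle mediates constriction, whereas Ednrb on endothelium promotes nitric oxide release and clears the peptide. In the renin-angiotensin system, angiotensinogen, the product of Agt, is cut by renin and then by Ace, which sits on the endothelial surface, to angiotensin II, the agonist of the receptor Agtr1a. GATA2 is known from human and bovine endothelial cells to act on the Edn1 promoter through a GATA site that works together with a nearby AP-1 site. That makes Edn1 the member with the most direct background link to the factor named in the label.

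The promoter window of Edn1 is shown because of that link, and the window at the upstream start of Ace because Ace was the member whose groups did not overlap at any of its probes. Both are RefSeq windows of assembly GRCm38.p6, with 250 bases before and 50 after an annotated start, on the plus strand. The Edn1 window is chr13:42301226-42301525 and the Ace window is chr11:105967698-105967997. Capitals mark letters of 2 motifs, searched on both strands. For GATA these were AGATAA with its variant AGATAG and TGATAA with its variant TGATAG. For AP-1 they were TGACTCA, whose reverse complement is TGAGTCA, and its variant TGACTAA.
Edn1: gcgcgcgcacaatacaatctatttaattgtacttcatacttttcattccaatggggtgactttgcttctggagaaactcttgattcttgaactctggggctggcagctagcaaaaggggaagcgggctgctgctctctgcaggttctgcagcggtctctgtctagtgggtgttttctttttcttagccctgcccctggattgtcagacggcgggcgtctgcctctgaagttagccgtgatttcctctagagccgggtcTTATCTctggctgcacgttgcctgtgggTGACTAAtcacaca
Ace: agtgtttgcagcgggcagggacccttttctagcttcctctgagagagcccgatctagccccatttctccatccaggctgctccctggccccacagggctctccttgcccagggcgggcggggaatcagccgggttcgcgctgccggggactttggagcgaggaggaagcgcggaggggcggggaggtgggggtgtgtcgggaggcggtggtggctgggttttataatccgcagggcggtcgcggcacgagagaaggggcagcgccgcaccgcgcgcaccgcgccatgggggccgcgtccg
The Edn1 window holds 1 GATA match, the reverse complement of AGATAA, that begins at base 9 counted from the annotated start as base 1. It also holds 1 AP-1 match, TGACTAA, that begins at base 37, and the matches do not overlap. The Ace window holds neither. RefSeq gave 12 windows for 8 of the 9 genes. The Edn1 window was the 1 window of these 12 with a GATA match, and the 1 window with an AP-1 match. Over all 32851 promoter windows, 29.8% held a GATA match, 7.38% an AP-1 match and 2.65% both. A match describes letters in the window and shows no binding.

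The arrays were similar in quality. On G2-EC-KO arrays 65.1% and 66.5% of probes were well above background, against 63.8% and 65.0% on control arrays, with 0 spots saturated. Endothelial markers were present throughout, with 10 of 10 well above background on all 4 arrays. Markers of other heart cells were present as well, among them 11 of 11 for pericytes and smooth muscle, 9 of 9 for fibroblasts, 10 of 10 for cardiomyocytes and 8 of 9 macrophage markers with a probe. A member's signal can therefore not be assigned to endothelial cells alone. Fewer cells of a type and less RNA per cell cannot be told apart in such bulk samples. Probes for Y-linked genes split the controls: 0 of 6 were well above background on either G2-EC-KO array, 0 on the first control array and 6 on control replicate 2. Xist probes were well above background on every array but control replicate 2. At A_51_P145453 the processed signal was 20103 and 18143 on the G2-EC-KO arrays, against 21538 and 6.36 on the control arrays. By these transcripts control replicate 2 read as male and the other arrays as female, so sex was not balanced between the groups. The part of sex in the member values was not tested. The labelled target, Gata2, read 2.17 and 2.46 on the G2-EC-KO arrays, against 1.86 and 2.17 on the control arrays at probe A_51_P516625. All such levels are log2 of the processed signal minus log2 of the array's 75th percentile, and levels of different probes are not compared. The log2 change of Gata2, G2-EC-KO minus control, was 0.29 (SE 0.18; limma, adjusted p = 0.586). The knocked-out stretch and the probe's place in the gene are not given here, so this value does not test the labels.

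No gene of the 2 systems passed the test between the groups, and Ace was the 1 gene whose groups lay apart. Of the 15 probes, 12 were well above background on at least 2 arrays and were tested, covering 8 of the 9 genes. Of these, 0 passed an adjusted p of 0.05 (limma, Benjamini-Hochberg over 26894 probes), where 0.00372% of all probes passed, and 1 had an unadjusted p under 0.05, where 9.63% of all probes did. The log2 changes ran between -0.35 and 0.053, with 5 probes higher, 7 lower and a median of -0.11, beside a median of -0.0020 over all probes tested. The 2 groups did not overlap at 2 of the 12 probes, both of them Ace, against 46.4% of all probes. The smallest two-sided p of an exact permutation test on 2 and 2 arrays is 0.333, and the tests here are therefore those of limma, which borrows the spread of all probes.

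**Figure D1:**
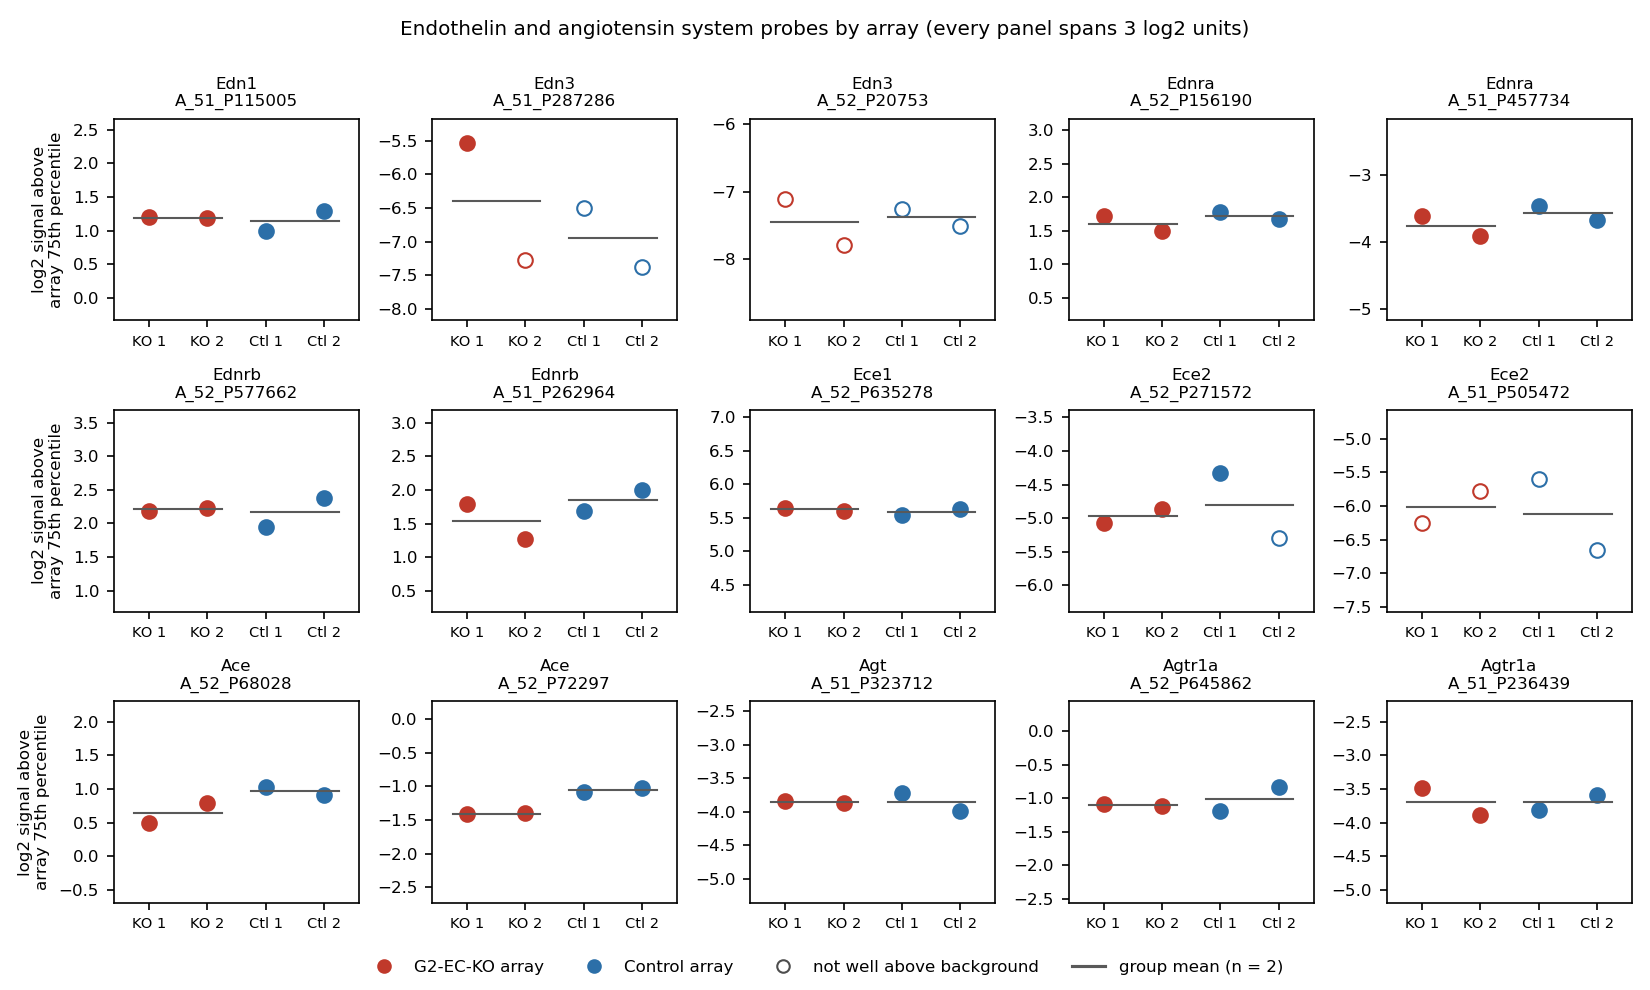
Levels of all 15 probes on each array, as log2 of the signal relative to the array's 75th percentile, with every panel spanning the same range. Points are arrays, G2-EC-KO left and control right, lines are group means (n = 2), and open points were not well above background. Both Ace probes separate the groups, and the open points are at Edn3 and Ece2.

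Edn1, which encodes the ligand endothelin-1, was well above background on every array. It read 1.20 and 1.18 on the G2-EC-KO arrays, against 0.99 and 1.29 on the control arrays. The G2-EC-KO values lay between the 2 control values, so the groups overlapped. The means were 1.19 ± 0.012 in G2-EC-KO and 1.14 ± 0.21 in control (SD, n = 2 each), and the log2 change was 0.053 (SE 0.14; limma, adjusted p = 0.894). Its 95% confidence interval, -0.32 to 0.43, spans 0.799 to 1.35 of the control level. A decrease to below that lower bound is outside the interval, and smaller differences in either direction are not. With 2 arrays a group, no difference was detected at Edn1, the gene whose window holds the GATA and AP-1 letters printed above.

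The genes whose profile over the 4 arrays came closest to Edn1 were Fbxl7, Atp6v1e1 and Tdg. Likeness was measured as the root mean square difference of the 4 values, each profile centred on its own mean, and was 0.00419 for Fbxl7, 0.00762 for Atp6v1e1 and 0.00915 for Tdg in log2 units. With 4 arrays such a profile is common: 1936 of 13613 genes, or 14.2%, lay within 0.1 of that of Edn1.

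Edn3, which encodes endothelin-3, the ligand that acts through Ednrb in neural crest development, was at or near background. Probe A_51_P287286 was well above background on 1 of 4 arrays, G2-EC-KO replicate 1, and A_52_P20753 on 0. At A_51_P287286 the processed signal was 27.9 and 7.63 on the G2-EC-KO arrays, against 15.6 and 8.61 on the control arrays. The highest and the lowest of these signals were both on G2-EC-KO arrays, so the groups overlapped. Neither probe was tested, and no fold change is given, because the G2-EC-KO mean lay below the lowest signal counted as above background in control.

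Ednra, the endothelin A receptor of smooth muscle and pericytes, was lowest on G2-EC-KO replicate 2 at both probes. At A_52_P156190 it read 1.72 and 1.50 on the G2-EC-KO arrays, against 1.78 and 1.68 on the control arrays. At A_51_P457734 it read -3.61 and -3.92 in G2-EC-KO, against -3.47 and -3.67 in control. The groups overlapped at both probes, since G2-EC-KO replicate 1 lay between the controls. The log2 changes were -0.12 (SE 0.13; limma, adjusted p = 0.731) and -0.19 (SE 0.16; adjusted p = 0.664). Without G2-EC-KO replicate 2 they were -0.010 and -0.035. Markers of pericytes and smooth muscle were also lowest on that array. Their summed level over 11 genes, in units of the array's 75th percentile, was 360 and 258 on the G2-EC-KO arrays, against 351 and 315 on the control arrays. The part of these cells in the Ednra values was not tested.

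Ednrb, the endothelin B receptor of endothelial cells, gave probes of opposite sign. At A_52_P577662 it read 2.18 and 2.23 on the G2-EC-KO arrays, against 1.95 and 2.38 on the control arrays. At A_51_P262964 it read 1.79 and 1.28 in G2-EC-KO, against 1.69 and 2.01 in control. Control replicate 2 was the highest array at both probes, while the lowest was control replicate 1 at the first and G2-EC-KO replicate 2 at the second, so the groups overlapped at both. The log2 changes were 0.043 (SE 0.18; limma, adjusted p = 0.934) and -0.31 (SE 0.22; adjusted p = 0.627). The second was -0.057 without G2-EC-KO replicate 2 and -0.57 without G2-EC-KO replicate 1, and the first turned to -0.17 without control replicate 1. Both probes carry the same accession, NM_007904, and RefSeq lists further Ednrb transcripts; which of them each probe reads is not given in the files. G2-EC-KO replicate 2, where A_51_P262964 was lowest, is also the array with the lowest sum of pericyte and smooth muscle markers, and their part in its value was not tested. The nearest profiles to that of A_52_P577662 were those of Il7, at 0.0116, Zfp273, at 0.0165, and Cd151, at 0.0204 log2 units, and 520 of 13613 genes lay within 0.1.

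**Figure D2:**
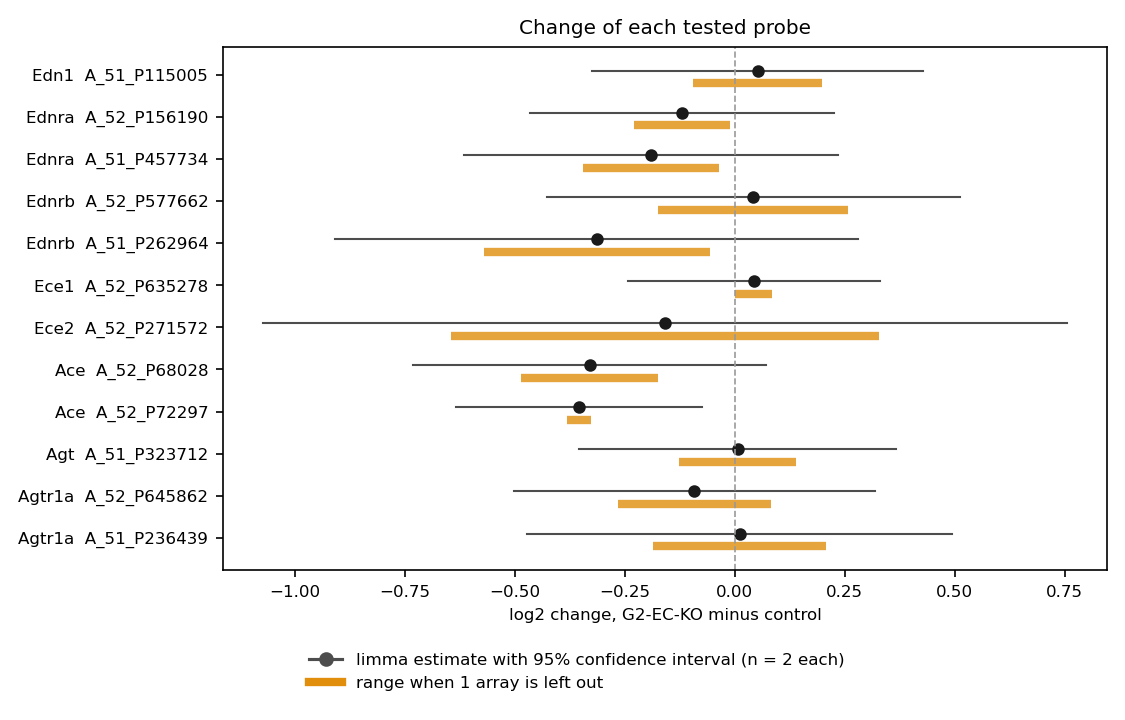
Log2 change of each tested probe, G2-EC-KO minus control, on the x axis. Points and thin lines are limma estimates with 95% confidence intervals (n = 2 each), and thick bars are the range when 1 array is left out. The interval of Ace probe A_52_P72297, -0.63 to -0.075, is the 1 interval of the 12 that leaves out 0.

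Ece1, the enzyme that cuts the endothelin-1 precursor to the active peptide, had similar values on all 4 arrays. At A_52_P635278 it read 5.64 and 5.61 on the G2-EC-KO arrays, against 5.54 and 5.63 on the control arrays. The groups overlapped, with control replicate 2 between the G2-EC-KO arrays. The log2 change was 0.043 (SE 0.11; limma, adjusted p = 0.886), with an interval of -0.24 to 0.33, or 0.845 to 1.26 of the control level. Its sign turned to -0.017 with quantile normalization. Ece2, a related peptidase best known from neural and endocrine tissue, was dim. At A_52_P271572 it read -5.07 and -4.87 on the G2-EC-KO arrays, against -4.32 and -5.30 on the control arrays, the last of these not well above background. The controls bracketed the G2-EC-KO values, and the log2 change was -0.16 (SE 0.35; limma, adjusted p = 0.869). Its interval, 0.476 to 1.69 of the control level, was the widest of the 12. The second Ece2 probe, A_51_P505472, was well above background on 0 arrays and was not tested.

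Ace, the endothelial peptidase that makes angiotensin II and degrades bradykinin, was the 1 member that read lower on both G2-EC-KO arrays than on both control arrays, and it did so at both of its probes. At A_52_P68028 it read 0.49 and 0.80 on the G2-EC-KO arrays, against 1.03 and 0.91 on the control arrays. At A_52_P72297 it read -1.42 and -1.40 in G2-EC-KO, against -1.08 and -1.03 in control. The groups did not overlap at either probe. The difference between group means exceeded the gap between replicates at both, though at A_52_P68028 by little, -0.33 beside a gap of 0.31 within G2-EC-KO. The means at A_52_P72297 were -1.41 ± 0.011 in G2-EC-KO and -1.05 ± 0.039 in control (SD, n = 2 each). The log2 change there was -0.35 (SE 0.11), or 0.782 of the control level with an interval of 0.645 to 0.949 (limma, adjusted p = 0.471). At A_52_P68028 it was -0.33 (SE 0.15), or 0.796 of the control level with an interval of 0.603 to 1.05 (limma, adjusted p = 0.548). Neither probe passed the adjusted threshold, and A_52_P72297 is the 1 member probe with an unadjusted p under 0.05. Groups lay apart in the lower direction at 22.6% of all probes, and 4.73% of all probes had an unadjusted p under 0.05 in that direction. Both probes read RNA of 1 gene on the same 4 samples and are not separate findings.

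With any 1 array left out, the Ace difference could change only in size, since groups that do not overlap keep its sign. It then ran between -0.38 and -0.33 at A_52_P72297 and between -0.49 and -0.17 at A_52_P68028, where -0.49 is the value without G2-EC-KO replicate 2 and -0.17 that without G2-EC-KO replicate 1. Without control replicate 2, the array with Y-linked transcripts, the change was -0.33 at A_52_P72297 and -0.39 at A_52_P68028. Ace is abundant in arterial endothelium among other vessels. The summed level of 5 arterial endothelial markers was 51.8 and 46.9 on the G2-EC-KO arrays, against 52.5 and 56.3 on the control arrays. Sums are in units of the array's 75th percentile. All 5 markers had log2 changes below 0, between -0.33 and -0.0086, as did 5712 of all 13628 genes. The groups lay apart at 1 of the 5, against 47.1% of all genes. The arterial sum was lowest on G2-EC-KO replicate 2, and Ace probe A_52_P68028 on G2-EC-KO replicate 1. The general endothelial markers summed to 468 and 481 in G2-EC-KO, against 460 and 505 in control, and overlapped. Cardiomyocyte, macrophage and fibroblast markers mostly lay on the opposite side to Ace. Log2 changes were above 0 at 10 of 10, 9 of 9 and 8 of 9 of them in turn, against 58.1% of all genes. Of these markers, 0 passed the adjusted threshold (limma) and 3 had an unadjusted p under 0.05, where 8.19% of all genes did. Other lists lay on the side of Ace. Log2 changes were below 0 at 9 of 11 pericyte and smooth muscle, 2 of 3 tested Schwann and 2 of 2 tested adipocyte markers. Cardiomyocyte markers summed to 100.4 and 134 in G2-EC-KO, against 94.3 and 95.3 in control. Macrophage markers summed to 6.20 and 5.81 in G2-EC-KO, against 3.92 and 6.03 in control, and fibroblast markers to 117.8 and 117.7 in G2-EC-KO, against 88.9 and 114.5 in control. The part of vessel type and of other cells in the Ace values was not tested.

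Agt, the precursor of the angiotensin peptides, was measured but dim. It read -3.83 and -3.86 on the G2-EC-KO arrays, against -3.72 and -3.99 on the control arrays. The controls bracketed the G2-EC-KO values. The log2 change was 0.0071 (SE 0.14; limma, adjusted p = 0.987), with an interval of 0.783 to 1.29 of the control level. Adipocytes are a known source of Agt. Of 4 adipocyte markers 1 was well above background on all arrays and Lep on none. Their summed level was 0.0443 and 0.283 on the G2-EC-KO arrays, against 0.413 and 0.377 on the control arrays. The part of adipocyte RNA in the Agt values was not tested.

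Agtr1a, the main angiotensin II receptor of vessels and heart, gave log2 changes near 0 and of opposite sign. At A_52_P645862 it read -1.09 and -1.12 on the G2-EC-KO arrays, against -1.18 and -0.84 on the control arrays. At A_51_P236439 it read -3.49 and -3.88 in G2-EC-KO, against -3.81 and -3.59 in control. At the first probe both G2-EC-KO arrays lay between the controls, and at the second the controls lay between the G2-EC-KO arrays. The log2 changes were -0.091 (SE 0.16; limma, adjusted p = 0.827) and 0.011 (SE 0.18; adjusted p = 0.985). Both signs depended on which array was left out, and that of the second probe was negative with the deposited value table. Agtr1b, a close paralog of Agtr1a, was well above background on 0 arrays.

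**Figure D3:**
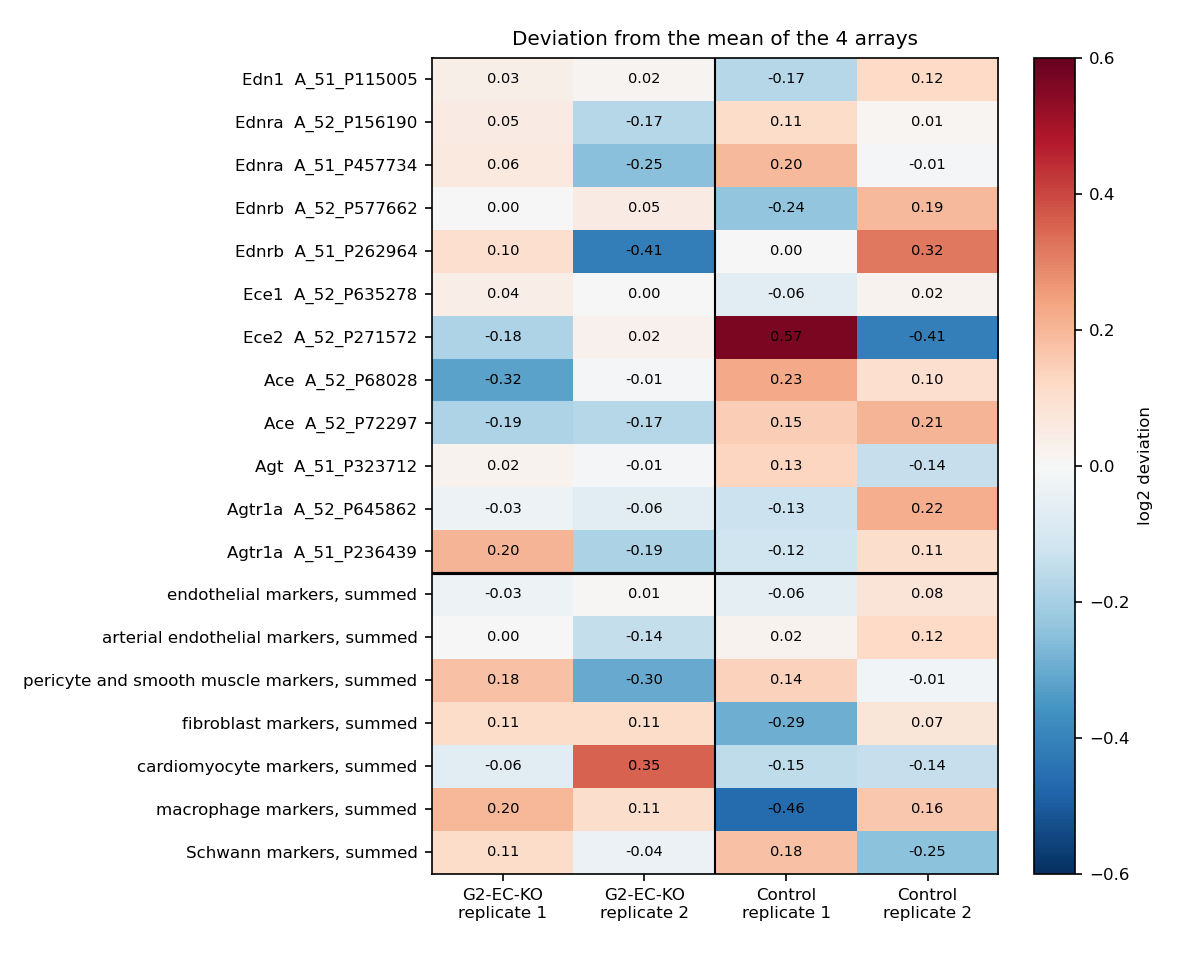
Deviation of each array from the mean of the 4 arrays, in log2 units, for the 12 tested probes and for the summed level of 7 marker lists. Columns are arrays, G2-EC-KO left and control right. Ednra at both probes and the pericyte and smooth muscle markers have their lowest value on G2-EC-KO replicate 2, while cardiomyocyte markers have their highest there.

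The rest of the 2 pathways was read from 5 lists with 80 genes in all, of which 76 had a probe and 66 were tested. Of these, 0 passed an adjusted p of 0.05 (limma), and likewise 0% of the 13628 genes tested by their brightest probe. At an unadjusted p under 0.05 there were 4 of the 66, 2 higher and 2 lower, against 8.19% of all genes. The groups lay apart at 31 of the 66 genes, against 47.1% of all genes. The lists had 29 genes higher and 37 lower, with a median log2 change of -0.039, beside 0.041 over all genes. Since none passed, the 5 genes with the smallest p are described by their values.

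Enzymes of angiotensin metabolism had 9 of 14 tested genes higher and a median of 0.079. The mast cell chymase gene Cma1, whose human counterpart forms angiotensin II, read -4.36 and -4.55 on the G2-EC-KO arrays, against -4.85 and -5.26 on the control arrays. Its log2 change was 0.60 (SE 0.18; limma, adjusted p = 0.471). This probe was dim, with processed signals of 62.5 and 50.5 in G2-EC-KO, against 49.1 and 37.4 in control. The other Cma1 probe was well above background on 0 arrays. The aminopeptidase gene Rnpep read 2.13 and 2.48 in G2-EC-KO, against 1.83 and 1.76 in control, and differed by 0.51 in log2 (SE 0.16; limma, adjusted p = 0.471). The groups lay apart at both genes, as at 47.1% of all genes. Both were picked for a small p, which favours groups that lie apart. The renin gene Ren1 was well above background on 0 arrays.

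Endothelin processing and clearance had 1 gene higher, Cma1, and 4 lower, with a median of -0.17. Edn2, the remaining endothelin gene, and the neprilysin gene Mme were well above background on 0 arrays. Among angiotensin and kinin receptors and genes that act beside them, 3 of 8 genes were tested, all with log2 changes below 0 and a median of -0.23. Agtr2, Mas1 and Bdkrb2 were well above background on 0 arrays. The mineralocorticoid receptor Nr3c2, a mediator of aldosterone signalling, read -3.58 and -3.63 on the G2-EC-KO arrays, against -3.27 and -3.29 on the control arrays. Its log2 change was -0.32 (SE 0.11; limma, adjusted p = 0.492), and another Nr3c2 probe gave -0.12.

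Genes that carry the signal of endothelin and angiotensin receptors had 10 of 26 tested genes higher and 16 lower, with a median of -0.047. The receptors act through Gq proteins, and the gene of the alpha subunit, Gnaq, differed by 0.019 in log2 (SE 0.12; limma, adjusted p = 0.955). Plcb1, a phospholipase C that Gq activates, read -0.17 and -0.60 on the G2-EC-KO arrays, against 0.11 and 0.13 on the control arrays, and differed by -0.50 in log2 (SE 0.18; limma, adjusted p = 0.511). The other Plcb1 probes gave -0.11 and -0.57. Its paralog Plcb4 read 0.72 and 0.53 in G2-EC-KO, against 0.99 and 0.89 in control, with a change of -0.32 (SE 0.12; limma, adjusted p = 0.527). Both genes read lower on both G2-EC-KO arrays than on either control. They too were picked for a small p, and groups lay apart at 47.1% of all genes.

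Transcription factors linked to Edn1, Gata2 among them, had 10 of 19 tested genes higher and 9 lower, with a median of 0.023. The list's 6 AP-1 subunit genes went both ways, and none passed the test (limma, adjusted p between 0.576 and 0.916). Their log2 changes were 0.23 for Jun, 0.20 for Fos, 0.032 for Junb, -0.056 for Fosb, -0.12 for Fosl2 and -0.20 for Jund. They were chosen for naming after the values were seen, because of the AP-1 letters in the Edn1 window, as was Gnaq for its place in the pathway.

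**Figure D4:**
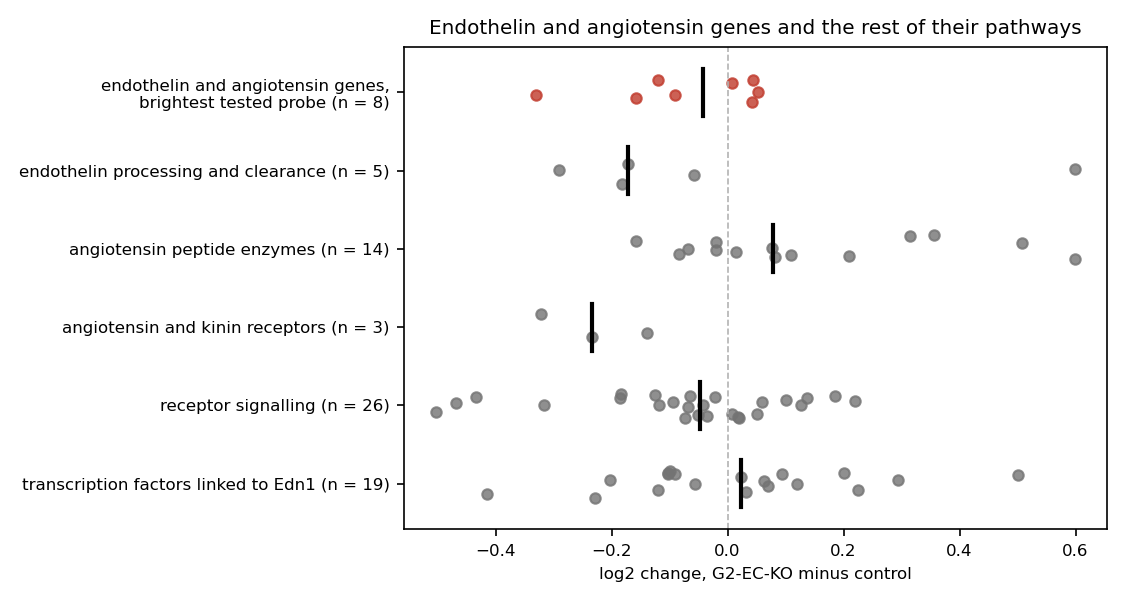
Log2 change, G2-EC-KO minus control, of the brightest tested probe of each gene, for the endothelin and angiotensin genes (n = 8) and for 5 lists of other pathway genes. Each point is a gene, bars are medians, and Cma1, at 0.60, stands in both enzyme lists. The endothelin and angiotensin genes lie between -0.33 and 0.053.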

How the data were processed

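The authors deposited 1 scanner file per array, whose processed intensity is linear, background-subtracted and detrended within the array, per the file headers, which name Feature Extraction 10.7.3.1; the submitters' processing notes name Agilent Feature Extraction 10.5. The array design is annotated on mm9. The deposited value table also holds linear intensity: each column equals that array's own median signal less local background, plus 16, with no centring (medians 149 and 138.5 for G2-EC-KO, 169 and 166 for control); a 1-colour level has no direction to settle. The authors deposited flags for spots in the scanner files, and these were used as given.

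Control and outlier spots were left out, log2 was taken, the 75th percentile of all non-control spots of the array was subtracted, and spots of a probe were averaged. Probes well above background on at least 2 of 4 arrays, 26894 of 41174, were tested on group alone with limma 3.58.1 (R 4.3.3), two-sided, with Benjamini-Hochberg adjustment at 0.05. Accessions matched RefSeq (GRCm38.p6) for 26933 probes. Of several probes, all are given for the members and the brightest for other genes. Named were all members, Gata2, the 5 pathway genes with the smallest p, and 3 nearest profiles each for Edn1 and Ednrb; the measure of likeness is given beside them. The marker lists served to describe the samples. The members and lists were chosen with earlier results of these data known. Alternatives were normexp (offset 50, on the median signal, since the planned mean signal was not used here), quantile normalization, median centring, 2 other filters, the deposited table, an intensity trend, the replicate number as a block and leaving out each array. The 2 arrays per group limit the precision.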

Additional observations from a re-analysis of the deposited data

How the results depend on the processing

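No member probe passed the adjusted threshold under any of the 8 processing alternatives or with any 1 of the 4 arrays left out (0 in each), and neither did a gene of the pathway lists; the smallest adjusted p of a member was 0.233 (limma), for Ednrb probe A_51_P262964 without G2-EC-KO replicate 1. Both Ace probes, both Ednra probes and that Ednrb probe kept a negative sign throughout. At Ace no other sign was possible with 1 array left out, since its groups did not overlap. The count of all probes past the threshold, 1, became 2 with normexp, quantile normalization or median centring, 0 without a filter, with the filter on all 4 arrays or with an intensity trend, and 0 to 8 with 1 array left out. Member probes at an unadjusted p under 0.05, 1, became 2 with normexp, and 0 to 2 with 1 array left out. Signs turned at Ece1 with quantile normalization (-0.017) and at Agtr1a probe A_51_P236439 with the deposited value table (-0.024). With 1 array left out the log2 change ran from -0.094 to 0.20 at Edn1, -0.17 to 0.26 at Ednrb probe A_52_P577662, -0.65 to 0.33 at Ece2, -0.13 to 0.14 at Agt, and -0.27 to 0.083 and -0.19 to 0.21 at Agtr1a; the sign of each turned. Ece2 has no value with the filter on all 4 arrays. The cause of these differences was not tested.

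The labels do not say that replicate numbers pair samples, and deviations of same-numbered arrays correlated at 0.044. Each probe has 1 such deviation per group, so the correlation cannot show whether same-numbered samples were paired. With the replicate block 0 of all probes passed, and the count of members at an unadjusted p under 0.05 was 1 as before.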
